A study of Mus musculus with 27 samples.

Results

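The comparison described here was that of zone 1 of the maternal liver lobule at 8 days post-coitum (8 dpc) with zone 1 of non-pregnant (NP) females. Its members were the genes that reached 1 FPKM in 3 or more of the 6 zone 1 libraries of these stages, and 11607 of the 21823 genes in the table met this rule. FPKM counts sequenced fragments per unit of transcript length and of library size. All mice were female, wild-type C57BL/6 animals, and the sample labels give no age, no litter and no treatment. The methods name the N substrain. RNA came from areas cut out of liver cryosections by laser capture microdissection and was sequenced after removal of ribosomal RNA. Each of the 2 groups had 3 libraries, and the series holds 27 libraries from 3 stages (NP, 8 dpc and 16 dpc) and 3 zones. The study describes its experiments as independent and done in different mice, but the labels do not tie each library to a mouse. In the fit over all 27 libraries, p-values and standard errors (SE) measure spread within groups across the whole series, not only in the 6 compared. An SE given beside 6 values can thus differ from the spread of those values. Of the remaining genes, 5818 were listed at 0 in all 6 libraries and 4398 were under the rule, while 28 of the members passed only through the 8 dpc libraries and 16 only through the NP libraries.

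The hepatic lobule is arranged along blood flow from the portal vein to the central vein. Periportal hepatocytes are known for urea synthesis, amino acid breakdown and gluconeogenesis, and pericentral hepatocytes for glutamine synthesis and drug metabolism. In mice, many hepatic genes are set by sex through the pulse pattern of growth hormone, and the maternal liver also responds to prolactin and placental lactogens. Liver growth in pregnancy involves division of hepatocytes as well as enlargement of the cells.

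The zone 1 libraries carried the periportal pattern. Cyp2f2, a periportal cytochrome P450, was at 523, 1165 and 1455 FPKM in the NP zone 1 libraries and at 564, 1183 and 1296 FPKM at 8 dpc, against a mean of 3.31 FPKM in NP zone 3. Glul, the pericentral glutamine synthetase, was at 58, 23.6 and 69 FPKM in NP zone 1 and at 74.4, 32.05 and 25.65 FPKM at 8 dpc, against a mean of 3082 FPKM in NP zone 3. Over 18 periportal markers the mean log2(FPKM + 1) level was 8.73 ± 0.47 (SD, n = 3) in NP zone 1, 8.41 ± 0.47 at 8 dpc and 4.52 ± 0.34 in NP zone 3.

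Replicate 1 stood apart from the other libraries in both groups. The mean log2 level of 32 connective tissue and smooth muscle genes was 5.81, 3.02 and 2.53 in NP replicates 1 to 3 and 5.60, 3.23 and 2.68 in the 8 dpc replicates, with 1 to 3 of the 32 genes at 0. The summed FPKM of 4 Y-linked genes, which a female liver lacks, was 15.39, 0.199 and 0.0175 in NP and 20.5, 2.81 and 0 at 8 dpc, so that both replicate 1 libraries held such transcripts. Over the member genes NP replicate 1 correlated with 8 dpc replicate 1 at r = 0.93 and with the other NP libraries at 0.87 and 0.85, where genes are not independent replicates. Because this difference lies within both groups, results are also given without the libraries in which the Y-linked sum was over 5 FPKM. Only replicates 2 and 3 of NP and of 8 dpc then remain in zone 1, and some libraries of other groups are left out too. The part of this difference in the results was not tested. Depth estimated from the steps between low FPKM values was 11.3 to 23.4 M reads (M for mega) in the 6 libraries.

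In the comparison of 8 dpc with NP, 2 genes rose and 2 fell at an adjusted p of 0.05 (limma across all 27 libraries, Benjamini-Hochberg adjustment over the 11607 genes), 0.0172% of genes in each direction. At an unadjusted p of 0.05 the counts were 226 higher (1.95%) and 135 lower (1.16%). All 3 values at 8 dpc lay above all 3 NP values in 423 genes (3.64%) and below them in 343 genes (2.96%), and the median log2 fold change over all genes was 0.01. Fold changes are differences of mean log2(FPKM + 1) and understate the change of weakly expressed genes. Gene lists are therefore described by counts and medians beside these shares, since almost no single gene passed the adjustment.

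Genes set by sex and growth hormone moved in both directions. A1bg encodes alpha-1-B glycoprotein, a secreted plasma protein of the immunoglobulin superfamily that is higher in female than in male mouse liver. A1bg (ENSMUSG00000022347.8, chromosome 15, 60896859 to 60923012, minus strand, mm10) was at 141, 590 and 116 FPKM in NP and at 2373, 1800 and 3043 FPKM at 8 dpc. The groups did not overlap, and the lowest 8 dpc library lay above the highest NP library. A1bg rose by 3.46 ± 0.58 (log2 fold change ± SE, adjusted p = 0.0287, limma), from a mean of 282 FPKM to a mean of 2405 FPKM. Its log2 fold change was 2.97 in zone 2 and 5.06 in zone 3, and 3.04 at 16 dpc against the same NP libraries in zone 1. Of the 86-base windows of its transcripts, 8.01% also occur in another gene. The adjusted p was 0.0643 without the Y-linked libraries, 0.999 when the 6 libraries were fitted alone, and 0.206 without NP replicate 1, 0.3665 without NP replicate 3, 0.196 without 8 dpc replicate 1, 0.0881 without 8 dpc replicate 2 and 0.193 without 8 dpc replicate 3.

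The A1bg promoter is shown because signal transducer STAT5, which acts downstream of growth hormone and prolactin, is known to bind sites of the form TTCNNNGAA. The window runs from 250 bases before to 50 bases after the RefSeq start (GRCm38.p6, the mm10 assembly, chr15:60921221-60921520, minus strand), which lies inside the GENCODE gene, and the capitals mark the match to TTCNNNGAA on either strand.
A1bg: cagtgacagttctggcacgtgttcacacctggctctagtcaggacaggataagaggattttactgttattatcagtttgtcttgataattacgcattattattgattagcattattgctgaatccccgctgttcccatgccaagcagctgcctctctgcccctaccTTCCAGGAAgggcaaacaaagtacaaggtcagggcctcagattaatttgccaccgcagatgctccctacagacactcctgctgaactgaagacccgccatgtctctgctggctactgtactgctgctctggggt
This motif was found in 4 of the 28 RefSeq promoters (14.3%) that 20 members of a list of female-biased, growth hormone dependent genes had, in 8.3% of all 32851 promoters and in 6.85% of the promoters of genes tested. No match was found in the same window of Cyp2b13 or Cyp3a44. A match describes letters only, and no binding was measured.

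Cyp2b13, a cytochrome P450 of female liver, went the other way. Cyp2b13 (ENSMUSG00000040583.8, chromosome 7, 26061497 to 26096197, plus strand, mm10) was at 33.7, 63.8 and 89.5 FPKM in NP and at 4.19, 11.9 and 14.4 FPKM at 8 dpc, without overlap. It fell by 2.54 ± 0.45 on the log2 scale (adjusted p = 0.0369, limma). The log2 fold change was -1.28 in zone 2 and -0.29 in zone 3. The difference of -2.25 between zones 1 and 3 had an adjusted p of 0.9998 (limma), and at 16 dpc in zone 1 the fold change was -3.99. The adjusted p was 0.016 without the Y-linked libraries, 0.0965 with a pseudocount of 0.1, 0.0742 without the filter and 0.999 when the 6 libraries were fitted alone. It was 0.176 without NP replicate 2, 0.3665 without NP replicate 3, 0.3695 without 8 dpc replicate 1, 0.0881 without 8 dpc replicate 2 and 0.0671 without 8 dpc replicate 3.

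The groups of Cyp2b9 and Cyp2b10, of the same subfamily, overlapped. Cyp2b9, the neighbouring female-biased P450, was at 234, 452 and 392 FPKM in NP and at 144, 425 and 382 FPKM at 8 dpc (log2 fold change -0.28 ± 0.40). Cyp2b10, a P450 induced by xenobiotics, was at 17.6, 28.2 and 42.3 FPKM in NP and at 14.9, 59 and 124 FPKM at 8 dpc (0.78 ± 1.01). Cyp3a44, a female-biased P450 of the Cyp3a cluster, was at 16.6, 39.2 and 24.9 FPKM in NP and at 198, 137 and 161 FPKM at 8 dpc. Its groups lay far apart, with a log2 fold change of 2.64 ± 0.51, but the adjusted p was 0.0876 (limma). Cyp3a44 passed the threshold under 4 of the 19 alternative settings, among them quantile normalization (adjusted p = 0.0131, limma), and 8.31% of its windows are shared, mainly with Cyp3a41a. Cyp3a16, a P450 best known from fetal and female liver, was at 4.26, 3.05 and 2.1 FPKM in NP and at 21.1, 13.9 and 4.7 FPKM at 8 dpc (1.61 ± 0.66). For Cyp3a41a, which shares 93.7% of its windows with other genes, the value of 0.48 ± 0.42 is uncertain. Of 13 genes tested in a list of the Cyp2b and Cyp3a families with the receptors Nr1i2 and Nr1i3 and the reductase Por, 10 had a positive and 3 a negative fold change, with a median of 0.31.

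Over the whole list of 28 female-biased genes tested the signs were nearly balanced, with 15 positive and 13 negative against 51.7% positive over all genes, and a median log2 fold change of 0.28. The median kept its sign in all 19 alternative settings, between 0.14 and 0.36. The same list had a median of 0.46 with 20 members positive in zone 2, and of 0.55 with 23 positive in zone 3. In zone 1, though the signs were nearly balanced, 7 members lay wholly above NP, against 3.64% of all genes: A1bg, Cyp3a44, Cyp3a16, Acot3, Prom1, Prlr and Cyp4a10. Acot3, a peroxisomal acyl-CoA thioesterase, was at 63.7, 26.8 and 51.3 FPKM in NP and at 87.6, 153 and 133 FPKM at 8 dpc (1.43 ± 0.62). Prom1, a membrane glycoprotein also used as a progenitor and biliary marker, was at 4.87, 2.67 and 5.74 FPKM in NP and at 11.4, 11 and 13.3 FPKM at 8 dpc (1.29 ± 0.46). Prom1 is also in the biliary list, of whose 16 tested members 12 had a negative fold change, while 9 of the 16 were positive without the Y-linked libraries. Cyp2c40, a female-biased arachidonic acid hydroxylase, was at 132, 469 and 293 FPKM in NP and at 80.4, 122 and 232 FPKM at 8 dpc (-0.99 ± 0.47), with overlapping groups.

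**Figure D1:**
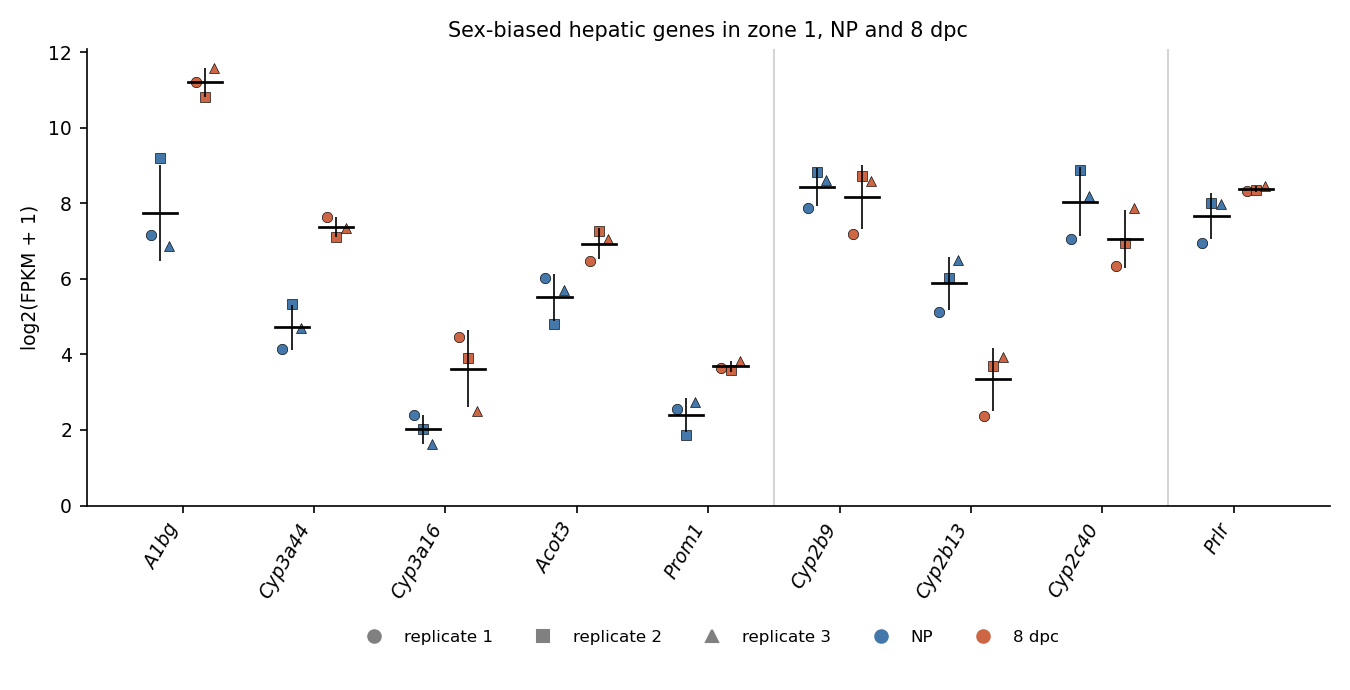
Levels of 9 sex-biased hepatic genes in zone 1, as log2(FPKM + 1) on the vertical axis, in NP (blue) and 8 dpc (red) libraries, with marker shapes for replicates 1 to 3, horizontal lines for the means and vertical bars for the SD (n = 3). A1bg, Cyp3a44, Cyp3a16, Acot3 and Prom1 lay higher at 8 dpc without overlap, Cyp2b13 lay lower without overlap, and Cyp2b9 and Cyp2c40 overlapped.

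Receptors and regulators of this axis did not pass the adjustment in zone 1. Prlr, the prolactin receptor, was at 122.6, 258 and 253 FPKM in NP and at 318, 325 and 352 FPKM at 8 dpc (0.72 ± 0.38), and its fold change at 16 dpc was 3.42. Ghr, the growth hormone receptor, was at 121, 173 and 218 FPKM in NP and at 104, 117 and 124 FPKM at 8 dpc (-0.53 ± 0.33), against 3.62 at 16 dpc. Bcl6, a transcriptional repressor that is higher in male liver, was at 7.28, 17.9 and 1.94 FPKM in NP and at 2.67, 1.77 and 1.22 FPKM at 8 dpc (-1.45 ± 0.67). The 8 dpc libraries lay closer together than the NP libraries in these 3 genes, and the groups overlapped for Ghr and Bcl6. Cux2, a female-specific transcription factor, was at 16.9, 8.23 and 42.2 FPKM in NP and at 40.5, 55.3 and 33.6 FPKM at 8 dpc (1.17 ± 0.66). Socs2, a feedback inhibitor induced by growth hormone, was at 7.82, 11.1 and 20.5 FPKM in NP and at 21.4, 20.8 and 19.9 FPKM at 8 dpc (0.72 ± 0.40). Of 22 signalling genes of this axis 10 had a positive and 12 a negative fold change, and 25 male-biased genes had a median of -0.14, which was positive when NP replicate 2 or 3 was left out.

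The other gene that fell was Gm45692 (ENSMUSG00000109850.1, chromosome 8, 26119534 to 26160819, plus strand, mm10). It was at 5.46, 3.26 and 5.31 FPKM in NP and listed at 0 in all 3 libraries at 8 dpc (adjusted p = 0.0369, limma). It met the expression rule only through the NP libraries, so it had to differ. Its locus overlaps Rnf170, and 91.1% of its 86-base windows also occur in Rnf170 and its pseudogene, so its level depends on how reads were divided between them in counting. With the replicate number as a block the adjusted p was 0.0615 (limma), and with that block 2 genes rose and 1 fell in all. It was called in none of the fits that left out 1 library of the comparison, in which its adjusted p was 0.0661 to 0.3665 (limma).

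Lipid genes were described by pathway, beginning with fatty acid oxidation. Eci3, an enoyl-CoA isomerase of peroxisomes, was at 8.17, 17.4 and 16.1 FPKM in NP and at 40.1, 47.7 and 64.5 FPKM at 8 dpc. Every 8 dpc library was above every NP library, with a log2 fold change of 1.84 ± 0.37 (adjusted p = 0.125, limma), and the fold change was 1.74 in zone 2 and 0.39 in zone 3. Eci3 passed the threshold with array weights (adjusted p = 0.0215) and with the connective tissue covariate (0.0178). Eci2, the isomerase most similar to Eci3, was at 89.4, 103 and 122 FPKM in NP and at 162, 189 and 128 FPKM at 8 dpc (0.59 ± 0.54). Cpt1a, which admits fatty acids to mitochondria, was at 130, 79.5 and 130 FPKM in NP and at 107, 170 and 115 FPKM at 8 dpc (0.21 ± 0.57), with overlapping groups. Of 39 genes of fatty acid oxidation and ketogenesis, 27 had a positive fold change, 5 lay wholly above NP (3.64% over all genes) and none wholly below (2.96%). Their median was 0.11, and it was negative when 8 dpc replicate 2 was left out (-0.06).

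Of 23 genes of the insulin and insulin-like growth factor axis, 9 had a positive and 14 a negative fold change, with a median of -0.15 that was positive (0.06) without NP replicate 1. Of 25 genes of gluconeogenesis 18 had a negative fold change (median -0.12), and of 33 genes of glucose uptake and glycolysis 21 had a positive one (median 0.10). Of 19 genes of glycogen synthesis and breakdown 11 had a positive fold change, with a median of 0.03 that changed sign in 4 of the 19 settings. Srebf1, the transcription factor that drives fatty acid synthesis under insulin, was at 191, 226 and 518 FPKM in NP and at 68.7, 99.8 and 140 FPKM at 8 dpc (-1.50 ± 0.58), with -0.92 in zone 2, -1.20 in zone 3 and -2.17 at 16 dpc. Scd1, the stearoyl-CoA desaturase, was at 1302, 1937 and 1480 FPKM in NP and at 754, 793 and 1069 FPKM at 8 dpc (-0.85 ± 0.44). In both genes no NP library was as low as any 8 dpc library, and NP replicate 3 was the highest for Srebf1. Ppp1r3b, which directs protein phosphatase to glycogen, was at 74.3, 81.5 and 148 FPKM in NP and at 37.2, 69.1 and 44.1 FPKM at 8 dpc (-0.98 ± 0.49). Mid1ip1, an activator of acetyl-CoA carboxylase, was at 41.6, 54.7 and 144 FPKM in NP and at 37.5, 33.1 and 40.3 FPKM at 8 dpc (-0.89 ± 0.98).

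Fasn and Acaca, enzymes of fatty acid synthesis, did not separate, unlike Scd1 above. Fasn, the fatty acid synthase, was at 161, 159 and 415 FPKM in NP and at 132, 201 and 258 FPKM at 8 dpc (-0.21 ± 0.72), and Acaca, acetyl-CoA carboxylase, had a log2 fold change of -0.10 ± 0.46. Of 28 genes of lipogenesis and triglyceride synthesis 12 had a positive and 16 a negative fold change. In this list 4 members lay wholly below NP (2.96% over all genes) and 1, Me1, wholly above (3.64% over all genes). The median was -0.07 and changed sign in 6 of the 19 settings. Of 34 genes of cholesterol synthesis and uptake 27 had a negative fold change, with a median of -0.17. None of them lay wholly above or below NP (3.64% and 2.96% over all genes). The median of the cholesterol list was positive without NP replicate 3 or without 8 dpc replicate 1.

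Among plasma proteins, Apoa1, the main protein of high-density lipoprotein, was at 2610, 4434 and 6106 FPKM in NP and at 785, 1956 and 1995 FPKM at 8 dpc. The groups did not overlap and the log2 fold change was -1.51 ± 0.51 (adjusted p = 0.999, limma), against 1.65 at 16 dpc with the same NP libraries. Apoe, the ligand of lipoprotein receptors, was at 11160, 15210 and 14760 FPKM in NP and at 5249, 9165 and 10750 FPKM at 8 dpc (-0.76 ± 0.43). In both genes replicate 1 was the lowest library of its group. Apob, the structural protein of very low-density lipoprotein, was at 766, 1391 and 1347 FPKM in NP and at 578, 1258 and 1214 FPKM at 8 dpc (-0.23 ± 0.42). Of 23 apolipoprotein and lipoprotein assembly genes 16 had a negative fold change.

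**Figure D2:**
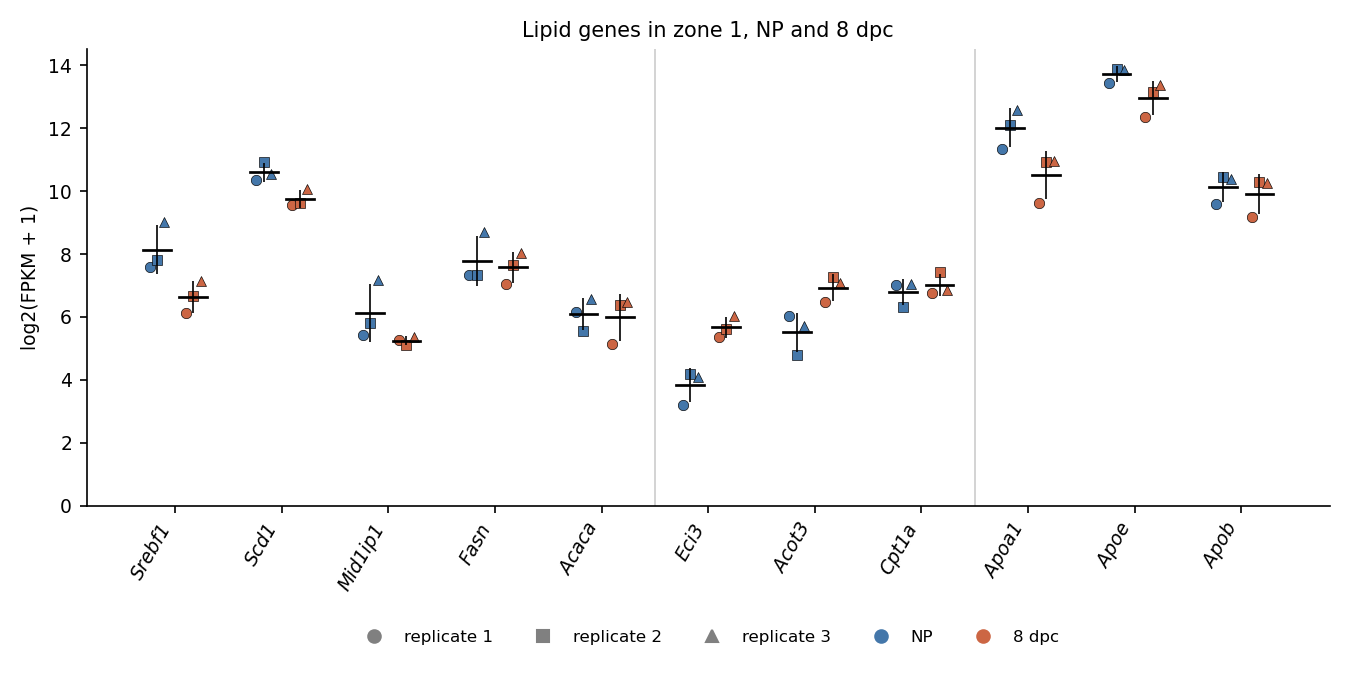
Levels of 11 genes of lipid handling in zone 1, as log2(FPKM + 1) on the vertical axis, in NP (blue) and 8 dpc (red) libraries, with marker shapes for replicates 1 to 3, horizontal lines for the means and vertical bars for the SD (n = 3). Srebf1, Scd1, Mid1ip1, Apoa1 and Apoe lay lower at 8 dpc without overlap, Eci3 and Acot3 lay higher without overlap, and Fasn, Acaca, Cpt1a and Apob overlapped.

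Mug2 and Mug1, murinoglobulins of the alpha-2-macroglobulin family of protease inhibitors, also lay below NP in all 3 libraries. Mug1 is in the acute phase list, of whose 29 members tested 18 had a positive and 11 a negative fold change. In this list 3 members lay wholly above NP (3.64% over all genes) and 1 wholly below (2.96% over all genes). The median of the list was 0.06 and changed sign in 3 of the 19 settings. Mug2 was at 128, 239 and 238 FPKM in NP and at 56.8, 82.1 and 85.2 FPKM at 8 dpc (-1.39 ± 0.37, adjusted p = 0.631, limma). Mug1 was at 201, 448 and 476 FPKM in NP and at 87.6, 185 and 194 FPKM at 8 dpc (-1.25 ± 0.54), and 31.4% of the windows of Mug2 and 9.53% of those of Mug1 are shared, so reads may be divided between them. Ttr, the carrier of thyroxine and retinol-binding protein, was at 1663, 3974 and 3633 FPKM in NP and at 870, 1537 and 1926 FPKM at 8 dpc (-1.07 ± 0.38). Without the Y-linked libraries Mug2 and Ttr passed the threshold, each with an adjusted p of 0.016 (limma). With the connective tissue covariate Apoa1 (adjusted p = 0.00366), Mug1, Mug2 and Ttr passed it, and with array weights Mug2 did. Alb, serum albumin, was at 30720, 62560 and 84390 FPKM in NP and at 33700, 60650 and 50470 FPKM at 8 dpc (-0.22 ± 0.49), with overlapping groups. Of 17 carrier proteins 14 had a negative fold change, with a median of -0.24.

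Genes of periportal nitrogen metabolism had mostly small negative fold changes, with no member of these lists past an unadjusted p of 0.05. Of 41 genes of amino acid breakdown 37 had a negative fold change (48.3% over all genes), with a median of -0.22 against 0.01. Tat, tyrosine aminotransferase, was at 909, 959 and 1139 FPKM in NP and at 525, 474 and 534 FPKM at 8 dpc (-0.97 ± 0.67). It was the only member whose groups did not overlap, while 2.96% of all genes lay wholly below NP. Tdo2, tryptophan dioxygenase, was at 331, 571 and 641 FPKM in NP and at 168, 246 and 357 FPKM at 8 dpc (-1.01 ± 0.64). Of 14 genes of the urea cycle and ammonia handling 12 had a negative fold change, with a median of -0.39 that stayed between -0.54 and -0.20 over 19 settings. Cps1, the first enzyme of the cycle, was at 778, 1341 and 1698 FPKM in NP and at 764, 753 and 1157 FPKM at 8 dpc (-0.47 ± 0.50), with overlapping groups. The periportal markers as a list moved with them, with 15 of 18 negative and a median of -0.44. In zone 2 the medians were -0.43 for the periportal markers, -0.50 for the urea cycle list and -0.22 for amino acid breakdown. In zone 3 they were 0.41, 0.04 and 0.10. In zone 1 the median of the amino acid list was positive (0.06) without 8 dpc replicate 1. There 67 of 84 nuclear respiratory chain genes had a negative fold change with a median of -0.14, which was positive (0.05) without NP replicate 3.

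Markers of stellate and sinusoidal endothelial cells had mostly negative fold changes in zone 1 at 8 dpc, and no member of these lists passed the adjustment. The 28 connective tissue and smooth muscle genes tested had 12 positive and 16 negative fold changes, with a median of -0.10 that ran from -0.89 to 0.90 over 19 settings. The biliary list had a median of -0.26, which was 0.19 without the Y-linked libraries. In pieces of tissue, fewer cells of a type and less RNA per cell cannot be told apart. The mean log2 level of 20 stellate cell markers was 3.29, 3.17 and 3.56 in NP and 2.77, 3.03 and 3.00 at 8 dpc, so that the groups did not overlap. Of the 18 markers tested 16 had a negative fold change and 5 lay wholly below NP, against 2.96% of all genes. The median of this list was -0.39 in zone 1, -0.33 in zone 2 and -0.23 in zone 3. Dcn, the matrix proteoglycan decorin, was at 55.1, 50.6 and 81.5 FPKM in NP and at 23.9, 36.2 and 47.5 FPKM at 8 dpc (-0.80 ± 0.33). Lrat, the retinol esterifying enzyme of stellate cells, was at 4.79, 6.13 and 8.37 FPKM in NP and at 1.42, 4 and 4.85 FPKM at 8 dpc (-0.82 ± 0.35), and Reln, another stellate marker, did not separate (-0.05 ± 0.36).

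Sinusoidal endothelial markers had a mean log2 level of 3.20, 3.63 and 3.86 in NP and 3.04, 3.35 and 3.30 at 8 dpc, with overlap through NP replicate 1. Of 24 markers 22 had a negative fold change and the median was -0.37, which stayed between -0.55 and -0.20 over 19 settings. The median of the same list was -0.50 in zone 2 and -0.18 in zone 3. Pecam1, an adhesion molecule of endothelial junctions, was at 11, 10.6 and 11 FPKM in NP and at 5.89, 6.91 and 9.05 FPKM at 8 dpc (-0.54 ± 0.40). Cd74, the invariant chain of class II antigen presentation, was at 53.6, 70.3 and 61.6 FPKM in NP and at 22.2, 32.7 and 49.8 FPKM at 8 dpc (-0.87 ± 0.33). H2-Eb1, a class II chain, was at 22.8, 24.6 and 23.2 FPKM in NP and at 8.14, 10.3 and 18.8 FPKM at 8 dpc (-0.95 ± 0.34). For both genes replicate 1 was lowest and replicate 3 highest at 8 dpc, and the log2 fold change in zone 3 was 0.08. The antigen presentation list had a median of -0.25, which was 0.01 without 8 dpc replicate 1. Of 17 Kupffer cell and macrophage markers 13 had a negative fold change (median -0.17), whereas Timd4, a marker of resident Kupffer cells, had 0.29 ± 0.36.

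**Figure D3:**
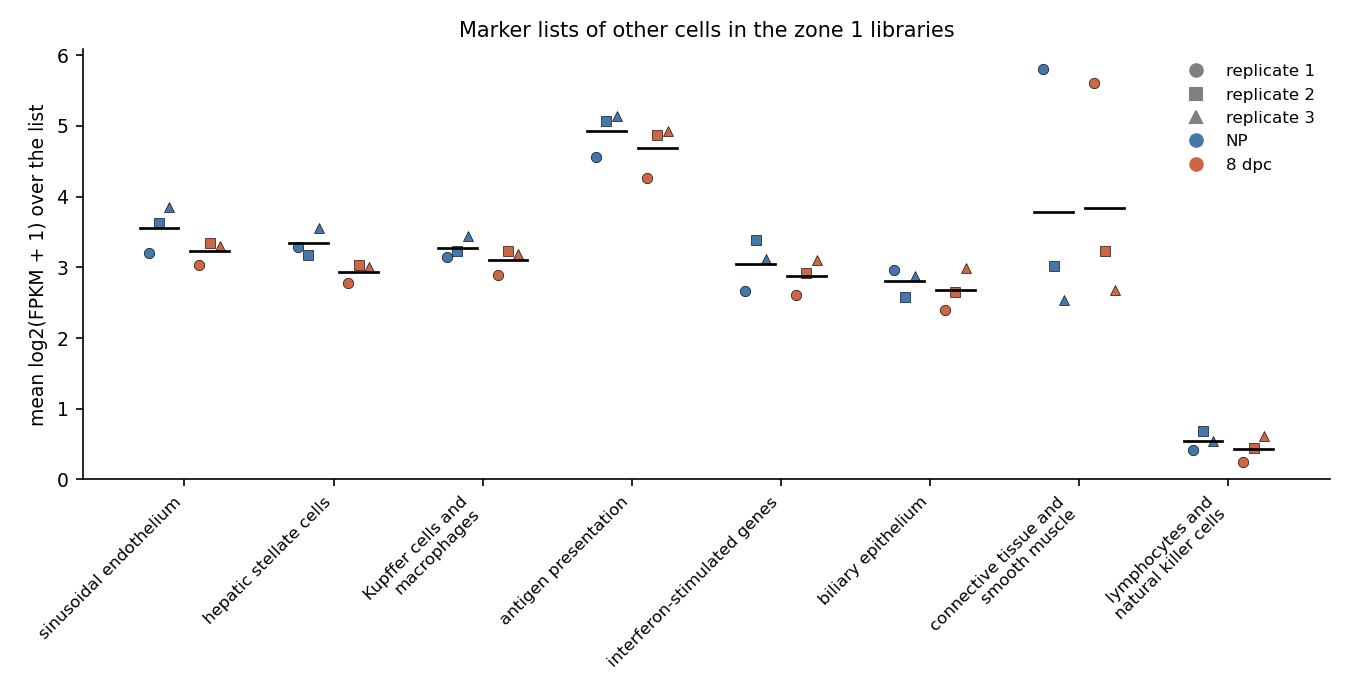
Mean log2(FPKM + 1) over marker lists of other cell types and of immune genes, on the vertical axis, in NP (blue) and 8 dpc (red) zone 1 libraries, with marker shapes for replicates 1 to 3 and lines for the group means. Stellate markers lay at 3.17 to 3.56 in NP and 2.77 to 3.03 at 8 dpc, and the connective tissue list was at 5.81 and 5.60 in the 2 replicate 1 libraries.

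Genes of cell division had the highest median of the 68 lists described. The mitosis and spindle list had 48 members tested, all with a positive fold change against 51.7% of all genes. Their median was 1.33, with 27 past an unadjusted p of 0.05 (1.95% over all genes) and 18 wholly above NP (3.64% over all genes). Of these 48 members 4 (Aspm, Esco2, Knstrn and Sgo1) met the expression rule only through the 8 dpc libraries and so had to differ. Of the other 44 members 23 passed an unadjusted p of 0.05 and 14 lay wholly above NP, and their median was 1.31. The range of the list's median over 19 settings was 1.07 to 1.90. The mean log2 level of the list was 2.417, 1.275 and 0.878 in NP and 3.502, 2.372 and 2.665 at 8 dpc. The groups thus overlapped, since NP replicate 1 lay above 8 dpc replicate 2. No member passed the adjustment in the fit over all 27 libraries, but of the other 44 members 2 passed with array weights (Ccnb2 and Mki67), 6 with the connective tissue covariate and 2 without the Y-linked libraries. Mki67, the proliferation antigen Ki67, was at 4.09, 1.46 and 0.565 FPKM in NP and at 22.9, 10.4 and 14.1 FPKM at 8 dpc (2.57 ± 0.62, adjusted p = 0.446, limma). Ccnb2, a cyclin of mitotic entry, was at 5.5, 0.296 and 0.355 FPKM in NP and at 19.2, 6.87 and 7.16 FPKM at 8 dpc (2.28 ± 0.66). Mad2l1, a spindle checkpoint protein, was at 3.25, 2.44 and 1.28 FPKM in NP and at 51, 6.8 and 12.8 FPKM at 8 dpc (2.46 ± 0.86). In these 3 genes replicate 1 was the highest of its group.

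The promoters of Ccnb2, Mki67 and Hmmr are shown because mitotic genes are known to carry a cell cycle genes homology region, TTTGAA, often together with CCAAT boxes. Both were searched on both strands, the capitals mark their matches, and no match overlaps another. Hmmr encodes a hyaluronan receptor that also binds the spindle. The windows are RefSeq promoters on GRCm38.p6, all on the minus strand: Ccnb2 at chr9:70421505-70421804, Mki67 at chr7:135716330-135716629 and Hmmr at chr11:40733388-40733687.
Ccnb2: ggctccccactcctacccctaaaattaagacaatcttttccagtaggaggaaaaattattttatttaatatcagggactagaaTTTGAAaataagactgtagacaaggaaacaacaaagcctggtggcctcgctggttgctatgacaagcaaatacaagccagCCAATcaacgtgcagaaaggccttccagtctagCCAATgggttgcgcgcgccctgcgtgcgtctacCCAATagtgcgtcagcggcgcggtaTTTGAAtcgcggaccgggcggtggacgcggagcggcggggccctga
Mki67: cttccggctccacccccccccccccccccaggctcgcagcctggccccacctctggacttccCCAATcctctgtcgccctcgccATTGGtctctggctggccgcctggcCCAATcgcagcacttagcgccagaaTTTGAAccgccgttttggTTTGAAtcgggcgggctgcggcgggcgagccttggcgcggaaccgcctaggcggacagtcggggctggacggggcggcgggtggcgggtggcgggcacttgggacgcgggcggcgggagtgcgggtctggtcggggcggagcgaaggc
Hmmr: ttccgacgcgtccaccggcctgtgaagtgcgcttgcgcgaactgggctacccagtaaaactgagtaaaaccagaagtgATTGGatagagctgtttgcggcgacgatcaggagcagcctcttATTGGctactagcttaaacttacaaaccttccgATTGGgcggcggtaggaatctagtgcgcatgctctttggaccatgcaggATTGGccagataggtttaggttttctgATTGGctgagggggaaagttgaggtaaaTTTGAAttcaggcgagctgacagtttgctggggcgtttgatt
Ccnb2 and Mki67 each had 2 matches to TTTGAA and 3 to CCAAT, and Hmmr had 1 and 5. Of the 43 RefSeq promoters that 40 mitotic members had, 34 held TTTGAA (79.1%), against 17.9% of all 32851 promoters and 12.1% of the promoters of genes tested. CCAAT was found in 32 of the 43 (74.4%), against 37.4% and 37.5%. Of 34 promoters of 29 replication genes 3 held TTTGAA (8.82%) and 19 held CCAAT (55.9%). These are descriptions of sequence and say nothing about binding in these livers.

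Replication genes followed with smaller values. Of 36 members of the replication and S phase list 34 had a positive fold change (51.7% over all genes), with a median of 0.80, and 8 lay wholly above NP (3.64% over all genes). Mcm5, a subunit of the replicative helicase, was at 3.29, 1.47 and 2.22 FPKM in NP and at 11.4, 2.42 and 8.36 FPKM at 8 dpc (1.181 ± 0.64). Of 47 replication-dependent histone genes 45 had a positive fold change, with a median of 0.71 that was 1.35 without NP replicate 1. The mean log2 levels of both lists overlapped between the groups. NP replicate 1 was at 2.34 for replication and 2.59 for histones, against 2.06 and 2.165 in 8 dpc replicate 2. Ccnd1, the cyclin of G1 entry, was at 58.9, 39.2 and 46.1 FPKM in NP and at 78.3, 39.5 and 52.2 FPKM at 8 dpc (0.20 ± 0.43), with overlapping groups.

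**Figure D4:**
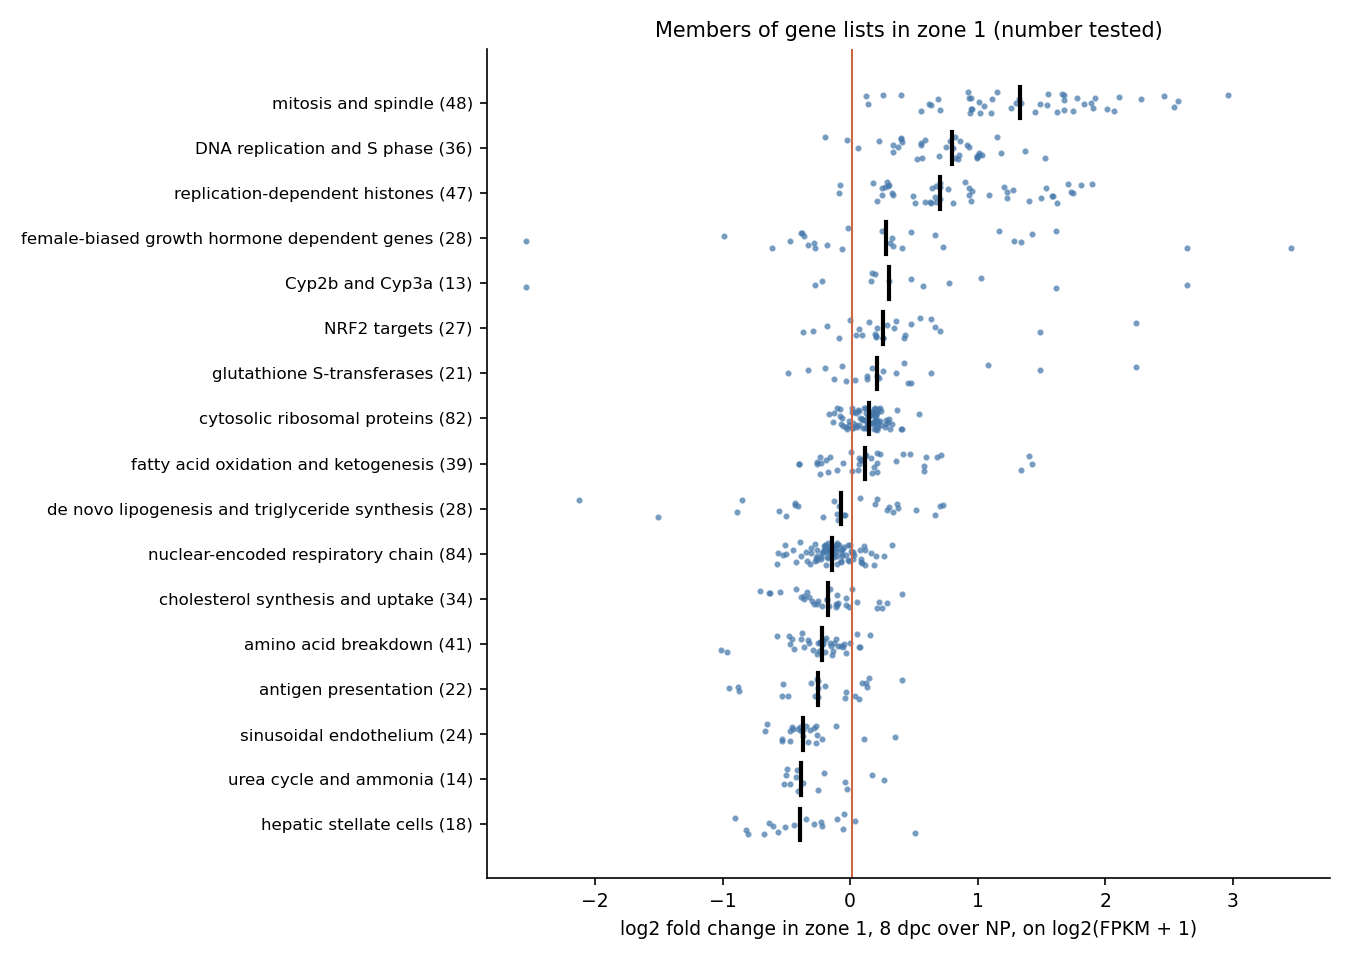
Log2 fold changes of the members of 17 gene lists in zone 1, 8 dpc over NP, on the horizontal axis, with 1 point per gene, black bars for list medians and an orange line for the median of all genes (0.01). The mitosis list lay wholly above 0 with a median of 1.33, and the stellate, urea cycle and endothelial lists had medians of -0.39, -0.39 and -0.37.

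At 8 dpc the same fit called 1 gene higher in zone 2 (0.00862%) and none lower (0%), and 2 higher (0.0172%) and none lower in zone 3 (limma; at an unadjusted p of 0.05, zone 2 had 231 genes up and 366 down, and zone 3 had 140 genes up and 172 down), while 109 genes were higher (0.939%) and 47 lower (0.405%) in zone 1 at 16 dpc. The zones were compared by testing the difference in change between zone 1 and each other zone. No gene passed an adjusted p of 0.05 (limma) for zone 1 minus zone 3, where 174 genes (1.5%) were higher and 88 (0.758%) lower at an unadjusted p of 0.05. None passed for zone 1 minus zone 2, with 176 (1.52%) and 71 (0.612%). Of the 44 mitosis members that did not enter through the 8 dpc libraries alone, 16 were among those higher in zone 1 than in zone 3 and none among those lower, and their median change was 1.31 in zone 1, 1.07 in zone 2 and -0.14 in zone 3. The median of the replication list was 0.80, 0.47 and -0.08 in the same order. Mki67 differed by 2.07 between zones 1 and 3 (adjusted p = 0.9998, limma), with changes of 1.44 in zone 2 and 0.50 in zone 3. Mki67, A1bg, Cyp3a44 and Srebf1 had the same sign in all 3 zones. Cyp2f2 had a change of -0.01 in zone 1 and 2.17 in zone 3, and the periportal marker list had a mean log2 level of 5.06 ± 0.24 in zone 3 at 8 dpc against 4.52 ± 0.34 in NP.

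**Figure D5:**
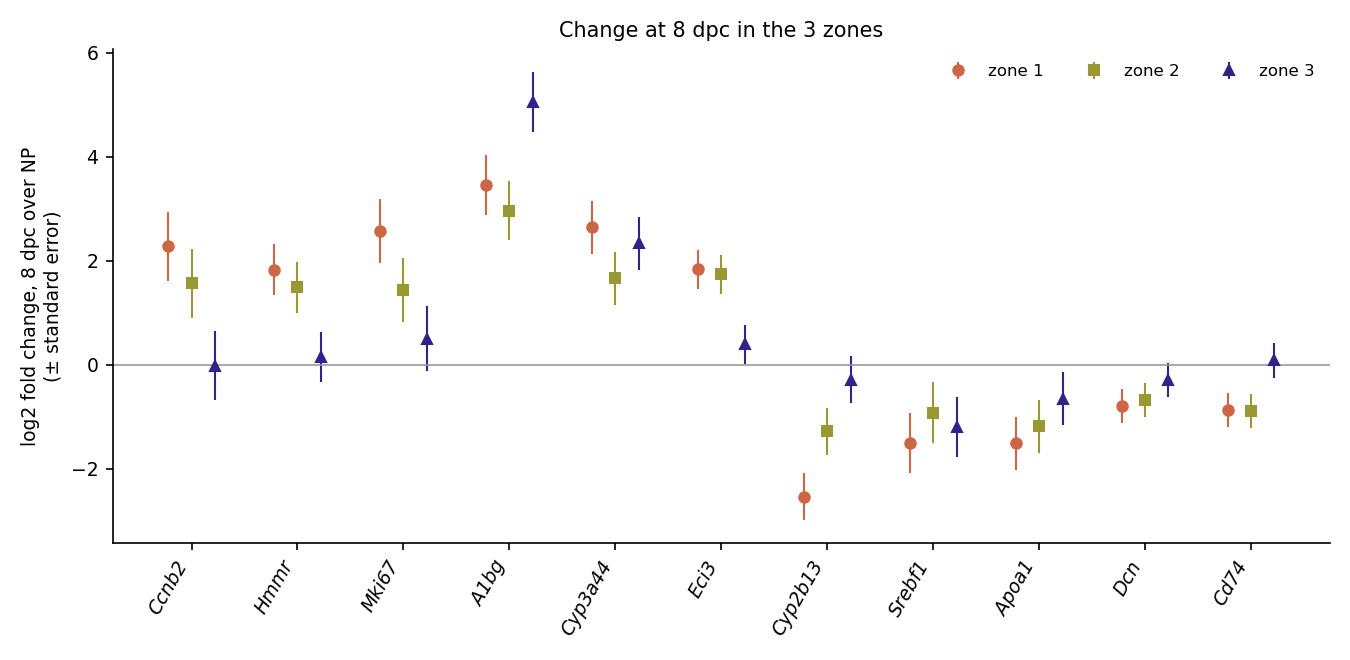
Log2 fold change of 11 genes at 8 dpc over NP on the vertical axis, with bars of 1 standard error from limma, in zone 1 (circles), zone 2 (squares) and zone 3 (triangles). Ccnb2, Hmmr and Mki67 had larger estimates in zone 1 than in zone 3 (Mki67 2.57, 1.44 and 0.50), and A1bg was positive in each zone (3.46, 2.97 and 5.06).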

How the data were processed

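Laser-microdissected zone 1 liver tissue of NP and 8 dpc mice was taken from a series of 27 libraries, grouped by their titles. Per the submitters' notes and the study's methods, reads were trimmed with cutadapt, aligned to mm10 with HISAT2 2.1.0 and summarised over protein-coding genes with Cuffdiff of Cufflinks 2.2.1. The FPKM values were deposited by the authors without read counts, so limma 3.58.1 in R 4.3.3 was used on log2(FPKM + 1) in place of a count test. The fit had 9 group means over 27 libraries, with intensity trend and robust settings, and two-sided p-values received the Benjamini-Hochberg adjustment over 11607 genes. All 27 columns had a sample. Identifiers and symbols came from the table, and positions from GENCODE vM21, which held 21806 of the 21823 identifiers. The fitting script was tested on simulated data.

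Depth was estimated from steps of low FPKM values (11.3 to 23.4 M reads, M for mega, in the 6 libraries), where 1 read on 1 kilobase corresponded to 0.0428 to 0.0886 FPKM. No interval was computed from these estimates.

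Replicate numbers come from the titles. Over the member genes, deviations from the group mean correlated between same-numbered NP and 8 dpc libraries at 0.68, 0.25 and 0.54, each over 0.1, so the numbers were treated as pairing the libraries, and a fit with a replicate block was made. The pairing is uncertain: NP replicate 2 correlated at 0.39 with 8 dpc replicate 3, and same-numbered zone 1 and zone 2 libraries at 8 dpc were at -0.10, -0.31 and 0.71.

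Named genes were those past the threshold, per direction the 15 largest fold changes among genes with an unadjusted p under 0.05, a mean of at least 5 FPKM in the higher group and no overlap, members of each list with the smallest p or the highest level or needed to describe it, A1bg, Mki67 and Hmmr, and 5 per direction by the difference between zones. Not every gene the rule selects is named, and some genes that met it are not reported here. The comparison, the 68 gene lists and the tests were chosen with earlier results of these data known.

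Alternatives were a pseudocount of 0.1, other filters, a fit of only the groups compared, quantile normalization, array weights, a connective tissue covariate, omission of libraries with Y-linked transcripts, replicate blocks, plain limma settings and omission of each library. Promoter sequences were those of RefSeq on GRCm38.p6.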

Additional observations from a re-analysis of the deposited data

How the results depend on the processing

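Against 2 genes higher and 2 lower at 8 dpc in zone 1, 0 and 0 passed when only the groups compared were fitted, with limma (188 and 104 at an unadjusted p under 0.05), 12 and 4 under array weights, 20 and 7 after adding the connective tissue covariate, and 5 and 3 without the Y-linked libraries. Lower calls numbered 0 with a pseudocount of 0.1 and 1 without the filter, with a minimum of 5 FPKM or with quantile normalization. Leaving out 1 library gave 1 to 2 higher and 0 to 1 lower. The replicate block, fitted on a pairing by number that is uncertain, gave 2 higher and 1 lower. A block in the 6 libraries alone, chosen after seeing the data, gave 0 and 0 with limma, with 495 and 322 at an unadjusted p under 0.05.

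For zone 2 (1 higher, 0 lower), the higher count was 0 with only the groups compared, 2 with quantile normalization, 4 with array weights, 3 with the covariate and 4 without the Y-linked libraries, and the lower count was 1 with array weights and 1 without the Y-linked libraries. For zone 3 (2 and 0), the higher counts were 0, 5, 4 and 5 with only the groups compared, array weights, the covariate and no Y-linked libraries, and the lower counts 2, 1 and 3 with the last 3 of these. For 16 dpc in zone 1 (109 and 47), the counts were 36 and 18, 363 and 222, 185 and 166, and 213 and 144 under the same 4 settings. For zone 1 minus zone 3, 1 gene was lower with the covariate. The causes were not tested. The histone median of 0.71 was 0.30 to 1.35 over the settings, 1.35 without NP replicate 1.

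Depth is known only as an estimate. Cyp2b13 and A1bg kept their direction in all 19 settings.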

Other observations

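Gene groups not described above included glutathione S-transferases and NRF2 targets. Of 21 glutathione S-transferases tested 15 had a positive fold change and none lay wholly above NP (3.64% over all genes). Their median was 0.21 and was negative without NP replicate 1 or without 8 dpc replicate 3 (lowest -0.04). Gstm3, a glutathione S-transferase induced by oxidative stress, was at 5.4, 3.44 and 6.59 FPKM in NP and at 3.49, 34.7 and 140 FPKM at 8 dpc (log2 fold change 2.24 ± 0.91). Gstm2 of the same family was at 19.4, 8.79 and 7.66 FPKM in NP and at 17.2, 20.4 and 40.6 FPKM at 8 dpc (1.08 ± 0.34), so that in both genes 8 dpc replicate 1 lay within the NP range. Of 27 NRF2 target genes 23 had a positive fold change with a median of 0.25, against 51.7% positive over all genes, and the median stayed between 0.06 and 0.34 over 19 settings. Of 82 cytosolic ribosomal protein genes 69 had a positive fold change with a median of 0.15, which was negative without NP replicate 2 or without 8 dpc replicate 1.

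Ly6d, a small membrane-anchored protein, was at 1.08, 1.45 and 0.348 FPKM in NP and at 6.89, 29.6 and 16 FPKM at 8 dpc (3.08 ± 0.99), without overlap, and its log2 fold change was 3.23 in zone 2 and 2.12 in zone 3. Selenoh, a nuclear selenoprotein, was at 4.14, 4.5 and 4.91 FPKM in NP and at 25.7, 16.7 and 10.1 FPKM at 8 dpc (1.66 ± 0.47), with -0.31 in zone 3. Atp8b1, a phospholipid flippase of the canalicular membrane, was at 15.7, 23.4 and 15.3 FPKM in NP and at 3.62, 6.68 and 8.79 FPKM at 8 dpc (-1.42 ± 0.36). Fabp4, a fatty acid binding protein of adipocytes, endothelium and macrophages, was at 6.95, 10.1 and 6.07 FPKM in NP and at 1.04, 1.94 and 3.07 FPKM at 8 dpc (-1.56 ± 0.44). None of these genes passed an adjusted p of 0.05 in the limma fit over all 27 libraries with no covariate. With the connective tissue covariate Atp8b1 and Selenoh passed, and with array weights Atp8b1 did.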
